A study of Homo sapiens with 2 samples.

Results

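Integrins are cell surface receptors made of an alpha and a beta subunit, which together bind proteins of the extracellular matrix or of other cells and couple them through adaptor proteins to the actin or keratin cytoskeleton. The pairing sets the ligand: ITGB1 joins many alpha subunits, ITGB4 joins ITGA6 alone, and ITGAV joins several beta subunits that recognise the RGD motif of fibronectin, vitronectin or latent TGF-beta. In ovarian cancer, integrins are known for the attachment of tumour cells to the peritoneal lining. The 10 subunit genes described here, ITGA2, ITGA3, ITGA5, ITGA6, ITGAV, ITGB1, ITGB4, ITGB5, ITGB6 and ITGB8, were taken by gene name from the transcript annotation, as 10 of 57110 gene entries, of which 17806 had a count.

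The study sequenced single cells pooled in equal numbers from SK-OV-3, IGROV1 and COV504, which are 3 human lines of ovarian cancer, on a PromethION nanopore instrument and on an Illumina instrument, to test the long-read software Isosceles. No line received a treatment. The integrin values come from the PromethION library, with 13052893 estimated counts in 2462 barcodes; the expression values of the Illumina library were not analysed here, and all 2462 barcodes also stood in its barcode list. Each platform had 1 library, so no value has a replicate, no test between lines was possible, and every interval is a 95% interval of counting error alone.

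The labels do not say which barcode came from which line, so barcodes with at least 1000 counts were grouped by marker genes, where 1 set held at least 75% of the counts of all sets. ERBB2, NNMT, TSPAN1 and DHRS2 marked 648 barcodes, called the ERBB2-high line. RARRES2 and TMEM100 marked 473 barcodes, the RARRES2-high line. FOLR1, CLDN3, DEFB1 and CXCL14 marked 765 barcodes, the FOLR1-high line. The groups rest on few counts: in the order given, medians were 10, 11 and 8 marker counts per barcode. Under 5 marker counts stood in 102, 79 and 220 barcodes. The other 576 barcodes stayed out: 333 had under 1000 counts, 35 had no marker count and 208 fell under the 75% share. At the threshold, 85 barcodes held from 75% to under 80% and 39 held from 70% to under 75%.

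Genes outside the rule were read as a check of the ERBB2-high line. GRB7, MIEN1, STARD3 and PGAP3, the neighbours of ERBB2 in the 17q12 amplicon, stood at 56.4, 528, 214 and 22.9 CPM (the pooled counts of a gene per 1000000 counts of its line) there, against 2.66, 143, 22.2 and 2.37 in the RARRES2-high line and 28.8, 103, 13.3 and 1.77 in the FOLR1-high line. CDKN2A, a cell cycle inhibitor, stood at 0.290, 0 and 19.5 CPM in that order. The ERBB2-high line was therefore SK-OV-3-like by these markers; the other lines are called by their marker gene. Epithelial markers EPCAM, KRT8, KRT18 and KRT19 summed to 1568, 7348 and 3145 CPM. Markers of leukocytes summed to 0.221 to 5.03 CPM over the lines with 2 of 4 listed markers at 0, those of endothelium to 1.45 to 31.4 CPM, and those of fibroblasts to 3.32 to 95.6 CPM with DCN at 0; their part in the integrin values was not tested. Totals per line were 3442383, 3377992 and 4514999 counts, and medians per barcode were 4953, 6262 and 5289.

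Several members are made in forms that differ by single exons, and these exons carry the transcript results below. The sequences are from the GENCODE release 29 transcripts (GRCh38), written 5′ to 3′ in the sense of the gene, and capitals mark the stop codon. ITGA6 ends in an A tail or a B tail, the cytoplasmic ends that alternate by inclusion of 1 exon of 130 bases. The A tail is coded at chr2:172501772-172501879 and the B tail at chr2:172504091-172504252, both on the plus strand.
ITGA6 A tail: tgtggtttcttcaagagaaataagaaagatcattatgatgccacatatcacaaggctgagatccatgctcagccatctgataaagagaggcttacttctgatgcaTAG
ITGA6 B tail: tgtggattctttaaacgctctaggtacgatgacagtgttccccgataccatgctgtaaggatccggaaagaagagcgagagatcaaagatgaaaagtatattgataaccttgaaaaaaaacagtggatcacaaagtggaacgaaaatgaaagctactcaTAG
ITGB1 ends in the widespread A tail, chr10:32901570-32901635, or in the D tail known from striated muscle, chr10:32907069-32907143, both on the minus strand.
ITGB1 A tail: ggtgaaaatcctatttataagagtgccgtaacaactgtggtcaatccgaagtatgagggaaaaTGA
ITGB1 D tail: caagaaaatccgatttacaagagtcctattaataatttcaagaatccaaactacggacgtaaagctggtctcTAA
The long cytoplasmic tail of ITGB4 can include an upstream exon of 210 bases, chr17:75753765-75753974, or a downstream exon of 159 bases, chr17:75755055-75755213, both on the plus strand and wholly coding, without a stop codon.
ITGB4 upstream exon: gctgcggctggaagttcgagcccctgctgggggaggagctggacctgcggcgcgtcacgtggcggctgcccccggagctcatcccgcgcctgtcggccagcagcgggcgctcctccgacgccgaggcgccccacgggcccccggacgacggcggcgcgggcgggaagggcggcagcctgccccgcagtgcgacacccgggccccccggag
ITGB4 downstream exon: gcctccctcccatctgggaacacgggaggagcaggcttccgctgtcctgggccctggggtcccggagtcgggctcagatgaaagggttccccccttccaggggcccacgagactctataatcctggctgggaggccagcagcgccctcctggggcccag

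Counts of the 10 genes made up 0.114% of all counts in the ERBB2-high line, 0.124% in the RARRES2-high line and 0.0458% in the FOLR1-high line, from 3938, 4176 and 2069 counts. The laminin receptor subunits ITGA3 and ITGA6 were high in the ERBB2-high and RARRES2-high lines and low in the FOLR1-high line. The RARRES2-high line had the highest ITGA2, ITGB4 and ITGB8, the ERBB2-high line the highest ITGB1 and nearly all ITGB6, and the FOLR1-high line the highest ITGAV. Levels were compared between lines within a gene, never between genes, since they are not scaled by length.

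**Figure D1:**
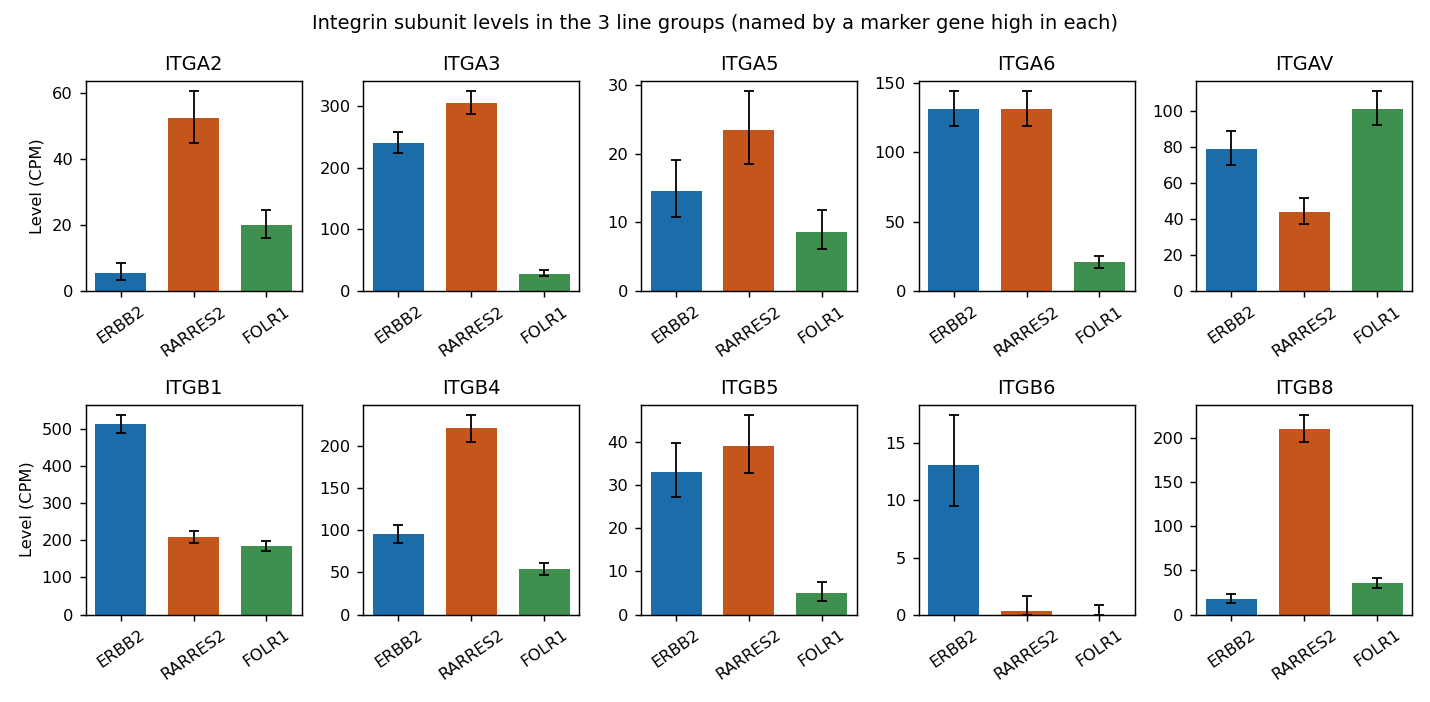
Levels of the 10 integrin subunit genes (y axis, CPM, each panel with its own scale from 0) in the 3 lines (x axis, by marker gene). Bars are pooled counts of all barcodes of a line and error bars exact 95% Poisson intervals; ITGA3 and ITGA6 are lowest in the FOLR1-high line, ITGAV is highest there, and ITGB6 has 45 counts in the ERBB2-high line, 1 in the RARRES2-high line and 0 in the FOLR1-high line.

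ITGA3 (chr17:50056110-50090480, plus strand) codes for the alpha subunit of a laminin receptor of epithelia. Its level was 241 CPM (225 to 258; 829 counts) in the ERBB2-high line, 306 CPM (288 to 325; 1034 counts) in the RARRES2-high line and 28.3 CPM (23.7 to 33.7; 128 counts) in the FOLR1-high line. The intervals did not overlap, and the RARRES2-high level was 10.8-fold (8.98 to 13.1) the FOLR1-high level but only 1.27-fold (1.16 to 1.39) the ERBB2-high level. ITGA6 (chr2:172427418-172506282, plus strand), the laminin receptor subunit that pairs with ITGB1 or ITGB4, was at 131 CPM in the ERBB2-high line (119 to 144; 452 counts) and at 131 CPM in the RARRES2-high line (119 to 144; 443 counts). These levels did not differ beyond counting error, with a ratio of 1.00 (0.876 to 1.14). The FOLR1-high line held 20.6 CPM of ITGA6 (16.6 to 25.2; 93 counts), and the ERBB2-high level was 6.37-fold that (5.09 to 8.06).

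ITGB4 (chr17:75721328-75757818, plus strand), whose long tail anchors hemidesmosomes to keratin filaments, had another order. It stood at 221 CPM (205 to 237; 745 counts) in the RARRES2-high line, 95.3 CPM (85.2 to 106; 328 counts) in the ERBB2-high line and 54.0 CPM (47.5 to 61.3; 244 counts) in the FOLR1-high line. No interval overlapped another: the RARRES2-high level was 2.31-fold (2.03 to 2.64) the ERBB2-high level, and that was 1.76-fold (1.49 to 2.09) the FOLR1-high level. The latter ratio depended on the scaling, with a log2 of 0.82 by all counts and 0.45 without mitochondrial and ribosomal protein genes. ITGA6, its only partner, did not follow this order, being level between the ERBB2-high and RARRES2-high lines.

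ITGA2 (chr5:52989326-53094779, plus strand), the alpha subunit of a collagen receptor, was at 52.4 CPM (45.0 to 60.7; 177 counts) in the RARRES2-high line, 19.9 CPM (16.0 to 24.5; 90 counts) in the FOLR1-high line and 5.52 CPM (3.32 to 8.62; 19 counts) in the ERBB2-high line. The ERBB2-high line was the lowest, with the RARRES2-high level 9.49-fold higher (5.90 to 16.1). ITGB1 (chr10:32900319-32958209, minus strand), the common partner of ITGA2, ITGA3, ITGA5 and ITGA6, was at 514 CPM (490 to 538; 1768 counts) in the ERBB2-high line. It was at 209 CPM (194 to 225; 706 counts) in the RARRES2-high line and 185 CPM (172 to 198; 834 counts) in the FOLR1-high line. The ERBB2-high level was 2.46-fold (2.25 to 2.69) and 2.78-fold (2.56 to 3.02) those of the other lines, whose intervals overlapped; their ratio, 1.13 (1.02 to 1.25) by all counts, fell below 1 when scaled otherwise (log2 of 0.18 by all counts, -0.14 without mitochondrial and ribosomal protein genes and -0.06 by the median of ratios). The alpha subunits ITGA2 and ITGA3, both highest in the RARRES2-high line, thus did not share the order of their partner.

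ITGA5 (chr12:54395261-54419460, minus strand), which with ITGB1 forms the main fibronectin receptor, was at 14.5 CPM (10.8 to 19.1; 50 counts) in the ERBB2-high line, 23.4 CPM (18.5 to 29.1; 79 counts) in the RARRES2-high line and 8.64 CPM (6.14 to 11.8; 39 counts) in the FOLR1-high line. By level, the ERBB2-high line lay between the others and its interval overlapped both of theirs. The RARRES2-high level was 1.61-fold (1.12 to 2.34) the ERBB2-high level, and that was 1.68-fold (1.08 to 2.63) the FOLR1-high level. The latter ratio had a log2 of 0.75 by all counts, 0.38 without mitochondrial and ribosomal protein genes and 0.37 by the median of ratios. The highest and lowest level were 2.71-fold (1.82 to 4.08) apart. ITGAV (chr2:186590065-186680901, plus strand), the alpha subunit of the vitronectin and latent TGF-beta receptors, was at 101 CPM (92.1 to 111; 457 counts) in the FOLR1-high line, 79.0 CPM (69.9 to 89.0; 272 counts) in the ERBB2-high line and 44.1 CPM (37.3 to 51.8; 149 counts) in the RARRES2-high line. Of the 9 members compared, it alone was at least 2-fold higher in the FOLR1-high than in the RARRES2-high line, by 2.29-fold (1.90 to 2.78).

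The beta partners of ITGAV were split over the lines. ITGB5 (chr3:124761948-124887297, minus strand), of the vitronectin receptor, was at 33.1 CPM (27.3 to 39.8; 114 counts) in the ERBB2-high line and 39.1 CPM (32.7 to 46.3; 132 counts) in the RARRES2-high line, which did not differ beyond counting error (ratio 1.18, 0.911 to 1.53), and at 5.09 CPM (3.23 to 7.64; 23 counts) in the FOLR1-high line. ITGB6 (chr2:160099666-160200313, minus strand), an epithelial subunit that activates latent TGF-beta, had 45 counts in the ERBB2-high line, or 13.1 CPM (9.54 to 17.5). It had 1 count in the RARRES2-high line, a ratio of 44.2 known only to within 7.53 to 1782, and 0 counts in the FOLR1-high line, where 3 counts would be 0.664 CPM, so that the ERBB2-high level was at least 19.7-fold higher. ITGB8 (chr7:20330702-20415754, plus strand), which also activates latent TGF-beta, was at 210 CPM (195 to 226; 710 counts) in the RARRES2-high line. It was at 35.7 CPM (30.4 to 41.6; 161 counts) in the FOLR1-high line and at 17.7 CPM (13.6 to 22.8; 61 counts) in the ERBB2-high line, 11.9-fold below the RARRES2-high level (9.12 to 15.7). The line low in ITGAV was thus the line high in ITGB8, while ITGB6 was found in the ERBB2-high line.

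A gene was compared where its mean over the lines reached 5 CPM, which left out ITGB6 and kept 9 members, and it was called where the levels were at least 2-fold apart. Between the ERBB2-high and RARRES2-high lines 4 of 9 members were called: ITGB1 was higher in the ERBB2-high line, where the background over all genes compared was 22.1%, and ITGA2, ITGB4 and ITGB8 were higher in the RARRES2-high line, with a background of 13.2%. Between the ERBB2-high and FOLR1-high lines 6 of 9 were called: ITGA3, ITGA6, ITGB1 and ITGB5 were higher in the ERBB2-high line (background 27.3%), and ITGA2 and ITGB8 in the FOLR1-high line (background 9.21%). The ITGB8 difference lay at the threshold, at 2.01-fold (1.49 to 2.75). Between the RARRES2-high and FOLR1-high lines 8 of 9 were called: ITGA2, ITGA3, ITGA5, ITGA6, ITGB4, ITGB5 and ITGB8 were higher in the RARRES2-high line (background 22.9%) and ITGAV in the FOLR1-high line (background 13.2%).

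The median log2 ratio of the 9 members was -0.35 for ERBB2-high over RARRES2-high, against 0.22 for all genes compared, then 0.82 against 0.46 for ERBB2-high over FOLR1-high, and 2.03 against 0.20 for RARRES2-high over FOLR1-high. In the last comparison the middle of the members, from 1.39 to 2.67, lay above the middle of all genes, from -0.46 to 0.90. Leaving mitochondrial and ribosomal protein genes out of the totals moved the median of all genes by -0.06, -0.37 and -0.31 in the 3 comparisons, and scaling by the median of ratios by -0.14, -0.38 and -0.24. Of all called genes, 62.6%, 74.8% and 63.4% were higher in the first line; the share was 59.7%, 55.3% and 46.3% under the former scaling and 54.3%, 54.7% and 50.4% under the latter. Every member called by all counts kept its direction under both scalings. The lines are shared between the comparisons, so the 3 results are not independent.

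**Figure D2:**
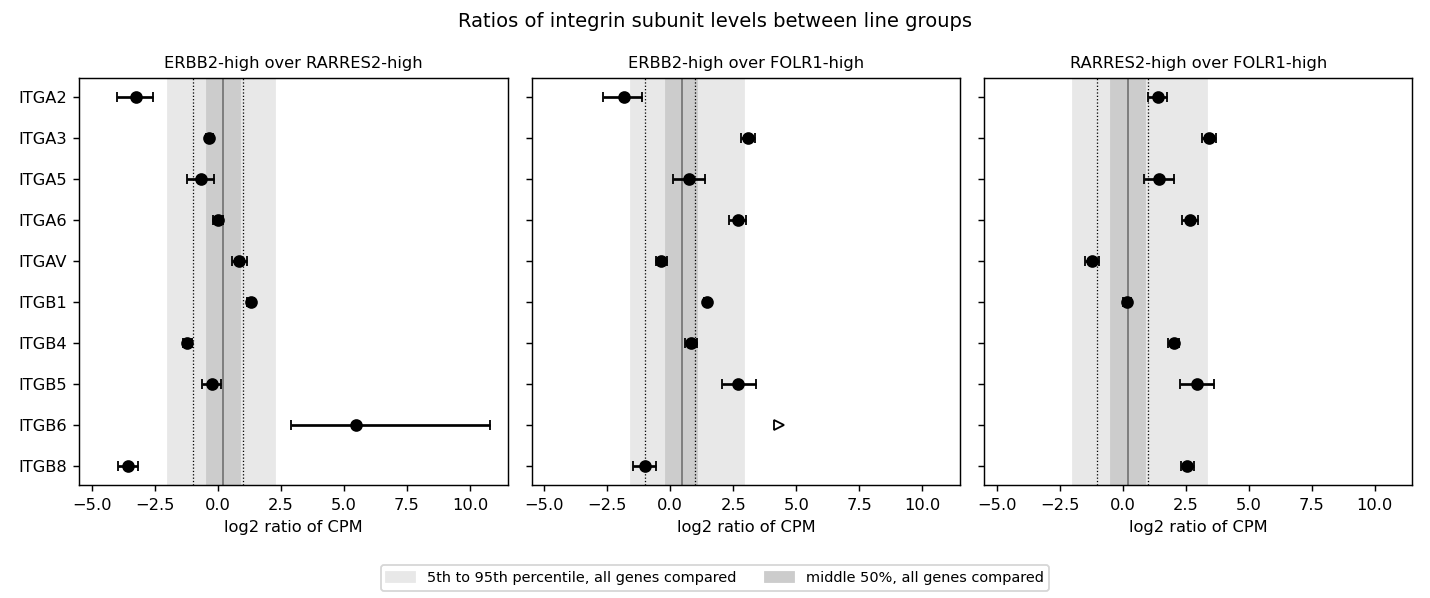
Log2 ratios of CPM (x axis) of each integrin subunit gene (y axis) for the 3 pairs of lines, with exact 95% intervals; dotted lines mark 2-fold, the grey line the median of all genes compared and the bands their middle and 5th to 95th percentile. The open triangle is a lower bound against 3 counts, and most members lie right of the middle band in RARRES2-high over FOLR1-high.

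In single barcodes the genes were found in shares that follow their levels. To set the lines side by side, each barcode was thinned to 2000 counts, which kept 606, 443 and 733 barcodes of the ERBB2-high, RARRES2-high and FOLR1-high lines and left out 42, 30 and 32. ITGB1 was then found in 60.7%, 35.7% and 28.9% of barcodes (83.8%, 67.7% and 55.9% before thinning). ITGA3 was found in 34.8%, 42.2% and 5.59% (63.0%, 76.7% and 12.4%). ITGB8 was found in 2.81%, 30.2% and 6.28% (8.02%, 60.0% and 16.1%), and ITGB4 in 14.9%, 28.9% and 8.46% (32.6%, 61.3% and 19.1%). These orders match those of the levels. ITGB6 was found in 1.65% of thinned ERBB2-high barcodes, in 0 of 443 RARRES2-high barcodes, which allows up to 0.677% (3 barcodes of the total), and in 0 of 733 FOLR1-high barcodes, which allows up to 0.409%. RGCC was found in 12.4% of thinned RARRES2-high barcodes and HSD17B2 in 9.96% of thinned FOLR1-high barcodes. Each was found in 0 thinned barcodes of the other lines. Both were named as line genes from earlier results of these data, so their absence elsewhere is no gauge of free RNA. ANKRD1, a gene of the RARRES2-high line at 114 CPM (384 counts), was at 4.43 CPM (20 counts) in the FOLR1-high line and had 5 counts in the ERBB2-high line. MOXD1 was found in 9.14% of thinned FOLR1-high and 1.16% of thinned ERBB2-high barcodes. ITGA3 was found in 5.59% of FOLR1-high barcodes. The part of free RNA in that share was not tested. The variance over mean was 1.39 for ITGB1 and 1.27 for ITGA6 in ERBB2-high barcodes, and 1.28 for ITGB8 in RARRES2-high barcodes. The treatment of molecular identifiers is not known, so variation between cells beyond sampling was not shown.

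The FOLR1-high line held barcodes in different states, which were set by genes that are no integrins. CXCL14, a chemokine, held at least 75% of the counts of CXCL14, DEFB1 and CD44 in 251 barcodes (the CXCL14 state) and at most 25% in 302 barcodes (the DEFB1-CD44 state); DEFB1 codes for an antimicrobial peptide and CD44 for a hyaluronan receptor. The other 212 barcodes lay between or had none of these counts. ITGB4, ITGA2 and ITGB8 were all lower in the CXCL14 state, ITGB4 and ITGA2 at 3 and 4 counts. ITGB4 was at 2.26 CPM (0.467 to 6.61; 3 counts) in the CXCL14 state and at 95.8 CPM (82.7 to 110; 192 counts) in the DEFB1-CD44 state, a ratio of 42.3 (14.3 to 207), with 41.3 CPM in the barcodes of neither state. After thinning, ITGB4 was found in 1 of 239 barcodes of the former (0.418%) and in 48 of 297 of the latter (16.2%). The mean ITGB4 level of the FOLR1-high line, 54.0 CPM, thus pooled barcodes nearly without ITGB4 and barcodes near the 95.3 CPM of the ERBB2-high line.

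ITGA2 was at 3.02 CPM (4 counts) in the CXCL14 state and 33.9 CPM (68 counts) in the DEFB1-CD44 state, a ratio of 11.2 (4.20 to 42.5). ITGB8 was at 8.30 and 53.9 CPM, a ratio of 6.50 (3.49 to 13.4), and ITGA3 at 15.1 and 40.4 CPM, a ratio of 2.68 (1.63 to 4.62). These were 4 of 9 members at least 2-fold higher in the DEFB1-CD44 state, against a background of 9.78% of genes, and 0 of 9 were as much higher in the CXCL14 state, against 4.57%. The median log2 ratio was 0.82 for the members and 0.10 for all genes compared. ITGA6 at 13.6 and 24.0 CPM and ITGB1 at 161 and 207 CPM had smaller ratios, 1.76 (1.01 to 3.22) and 1.29 (1.09 to 1.53). ITGAV went the other way, at 137 CPM in the CXCL14 state and 82.8 CPM in the DEFB1-CD44 state (DEFB1-CD44 over CXCL14 0.607, 0.489 to 0.753). ITGB5, at 7.54 and 3.99 CPM (0.529, 0.182 to 1.49), and ITGA5, at 8.30 and 6.99 CPM (0.842, 0.355 to 2.05), did not differ beyond counting error.

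FOLR1 and CLDN3, whose counts helped to choose these barcodes, stood at 606 and 571 CPM and at 270 and 415 CPM in the CXCL14 and DEFB1-CD44 states. EPCAM, an epithelial adhesion molecule, was at 9.05 CPM in the CXCL14 state and 174 CPM in the DEFB1-CD44 state. PLEC, the plectin that links ITGB4 to keratin, was at 20.4 and 65.9 CPM, and LAMA3, a chain of the laminin that ITGA3 and ITGA6 bind, at 2.26 and 19.5 CPM, while DST, another linker of hemidesmosomes, was at 13.6 and 3.49 CPM. Median counts per barcode were 4939 and 6147. In barcodes with no count of the other lines' marker genes, ITGB4 was apart by -4.92 on the log2 scale (CXCL14 over DEFB1-CD44), against -5.40 in all. Setting the state by CXCL14 against DEFB1 alone gave -4.12 and took ITGA3 under the threshold, at -0.88. The states were set within 1 library, and whether they are stable types of cell was not tested.

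**Figure D3:**
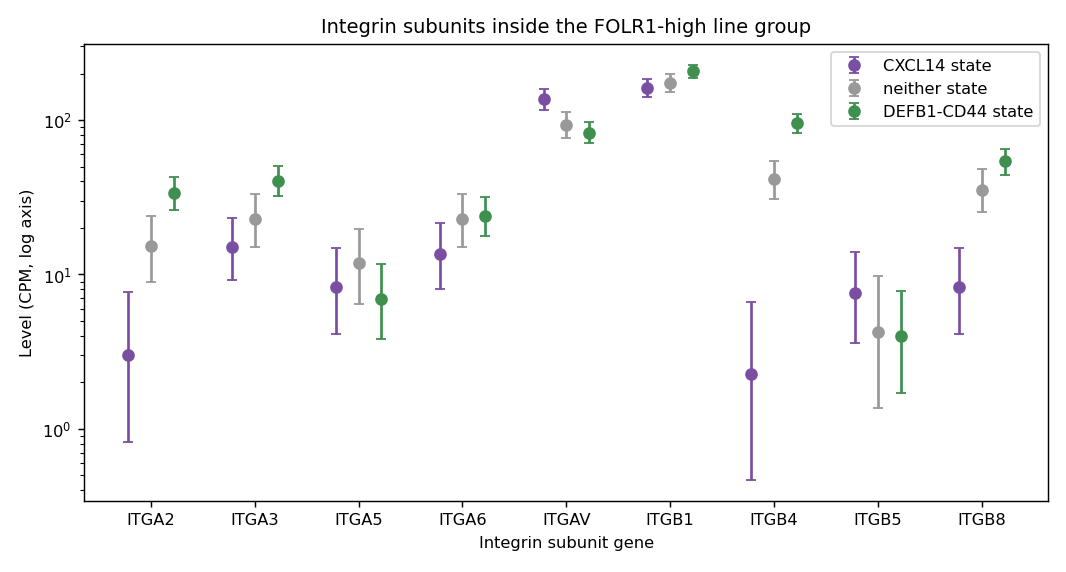
Levels (y axis, CPM, log axis) of 9 integrin subunit genes (x axis) in FOLR1-high barcodes of the CXCL14 state, of neither state and of the DEFB1-CD44 state, with exact 95% Poisson intervals. ITGB6 had no count and is not drawn; ITGB4 stands at 2.26 CPM in the CXCL14 state and 95.8 CPM in the DEFB1-CD44 state, and ITGAV is higher in the CXCL14 state.

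Of the 10 genes, 7 had more than 1 listed transcript, and the 27 listed transcripts all had the same start and end as in GENCODE release 29. The deposited counts are estimates: a read that fits several transcripts is shared among them. Intervals of shares therefore understate the error. A share difference was called at 10 points in genes with at least 50 counts in both lines, which 6 members had. Only ITGB4 was called, between the ERBB2-high and RARRES2-high lines (1 of 6 members, against 12.8% of all such genes, 19.5 points) and between the ERBB2-high and FOLR1-high lines (1 of 6 against 12.1%, 14.4 points). Between the RARRES2-high and FOLR1-high lines 0 of 6 were called, against 15.2%, and ITGB4 differed by 5.30 points. The members' share of calls was thus near the background.

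The ITGB4 transcript with the downstream exon (ENST00000449880) held an estimated 37.1% of its counts in the ERBB2-high line, 17.6% in the RARRES2-high line and 22.8% in the FOLR1-high line. The transcript with neither exon (ENST00000450894) held 34.3%, 47.7% and 42.4%, and that with the upstream exon (ENST00000200181) 28.1%, 33.6% and 33.1%. Only 17.4%, 12.6% and 12.7% of these counts stood in whole values. Barcodes with a single ITGB4 count show the set of transcripts that 1 read fits. Of 369 such barcodes, 276 (74.8%) fitted all 3 transcripts alike and could not tell them apart.

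Among the decided barcodes the downstream exon was present in 11 of 29 in the ERBB2-high line (37.9%, Clopper-Pearson 20.7 to 57.7), in 0 of 23 in the RARRES2-high line, which allows up to 13.0% (3 counts of the total, as for every such limit here), and in 0 of 15 in the FOLR1-high line, which allows up to 3 of 15. Over all lines and unassigned barcodes it was present in 12 of 73 decided barcodes. Whole values of the estimates, which also come from barcodes with several ITGB4 counts, held 23, 25 and 6 counts of this transcript in the ERBB2-high, RARRES2-high and FOLR1-high lines, so it was not absent from the other lines by that measure. This transcript also lacks the first exon of the others, so a read that reached it could not fit; the part of this in the counts was not tested. The upstream exon was seen in 0 of 10, 0 of 10 and 0 of 5 decided barcodes of the lines, which allows up to 3 of 10, 3 of 10 and 3 of 5. The deposited estimates over the transcripts with the upstream exon and with neither were 45.0%, 41.3% and 43.8%. A further 14 barcodes over all groups fitted both transcripts with an exon but not that with neither, which ends 3 bases earlier. No listed transcript has both exons, so these barcodes show neither exon. The end alone set them apart, and they were counted as undecided. Over all barcodes, those with several ITGB4 counts included, whole values held 11, 27 and 8 counts of the transcript with the upstream exon and 22, 37 and 14 of that with neither, so the measures differed here too.

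**Figure D4:**
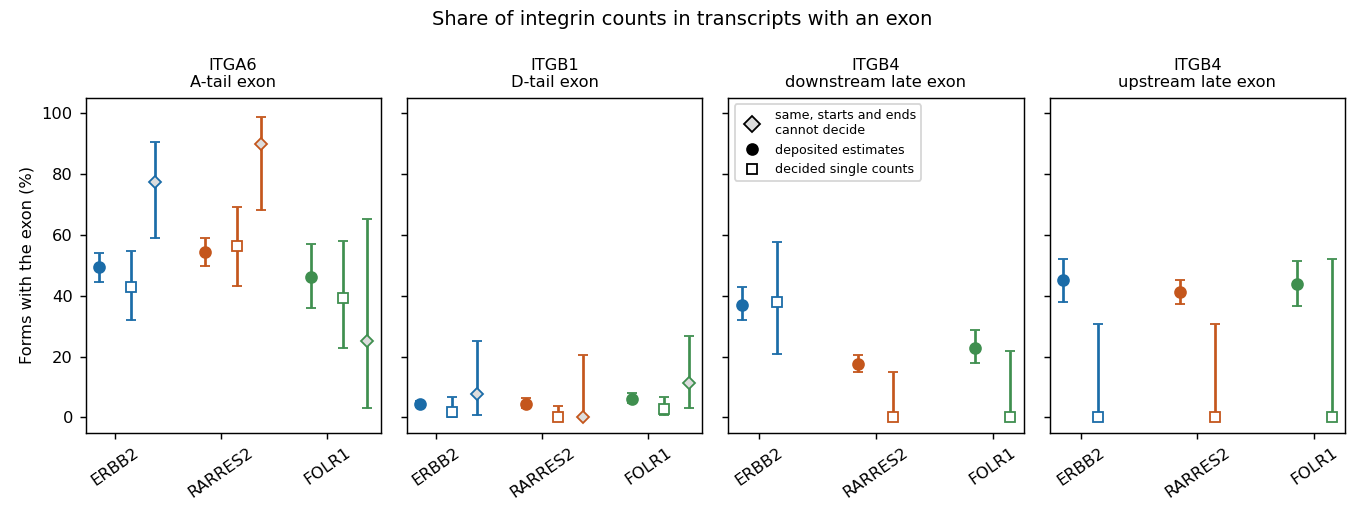
Share of counts in forms with an exon (y axis, percent) for 4 exon choices of ITGA6, ITGB1 and ITGB4 in the 3 lines (x axis), by the deposited estimates (filled circles) and by decided barcodes with a single count of the gene (open squares; grey diamonds leave out those that a transcript start or end could decide), with 95% Clopper-Pearson intervals. The downstream ITGB4 exon is highest in the ERBB2-high line by both measures, with 0 of 23 and 0 of 15 decided barcodes in the other lines; for the upstream exon the estimate is taken over the transcripts with it and with neither exon.

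For ITGA6 the A-tail transcript (ENST00000264107) held an estimated 43.8% of counts in the ERBB2-high line, 221 of 443 counts in the RARRES2-high line and 43.2% in the FOLR1-high line, and the B-tail transcript (ENST00000409080) 47.3%, 43.3% and 47.7%. In decided barcodes the A-tail exon was present in 34 of 79 (43.0%, 31.9 to 54.7), 35 of 62 (56.5%, 43.3 to 69.0) and 13 of 33 (39.4%, 22.9 to 57.9), with overlapping intervals, and in 100 of 210 overall (47.6%, 40.7 to 54.6). The B-tail transcript also ends 52 bases further on, so a read that reached that end could fit it alone without showing the exon. In 92 barcodes that fitted it alone, exon and end cannot be told apart. Without them the A-tail exon was present in 100 of 118 (84.7%), which leaves out true B-tail reads as well. Of decided barcodes that fitted more than 1 transcript, 53 fitted a pair of A-tail transcripts and 18 only B-tail transcripts (74.6% with the A tail, 62.9 to 84.2). The lines held 24 of 31 (58.9 to 90.4), 18 of 20 (68.3 to 98.8) and 2 of 8 (3.19 to 65.1). The RARRES2-high and FOLR1-high intervals did not overlap. Ends still sort these classes. A B-tail read past chr2:172504252 fits ENST00000409080 alone, while an A-tail read fits the pair as far as chr2:172504534. These shares are thus not free of the ends. Both tails were thus seen in every line, but the share of each was not settled.

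For ITGB1 the D-tail transcript (ENST00000423113) held an estimated 4.26%, 4.56% and 6.14% of counts. In decided barcodes it was seen in 2 of 103 (1.94%), 0 of 96, which allows up to 3.12%, and 4 of 153 (2.61%), and in 8 of 439 overall (1.82%, 0.790 to 3.56). The D-tail transcript lacks the first exons of the others, so a read that reached a first exon could not fit it; without the barcodes that fitted an A-tail transcript alone, the D tail was seen in 2 of 26, 0 of 16 and 4 of 35, and in 8 of 92 overall (8.70%, 3.83 to 16.4). The A tail was the main form in all lines by each of these measures, and the share of the D tail was not settled. Its 2 transcripts, which have different starts and ends, held 87.9%, 88.1% and 80.1% (ENST00000302278) and 7.81%, 7.31% and 13.7% (ENST00000396033), so the FOLR1-high line stood apart by 8.01 points from the RARRES2-high line, under the threshold of 10.

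ITGAV was split by the deposited estimates into 56.0%, 55.4% and 58.0% for ENST00000261023 and 41.5%, 42.8% and 40.9% for ENST00000374907, which lacks a pair of early coding exons of 108 bases in all. Of 497 barcodes with a single count, 414 fitted both alike. A further 40 fitted ENST00000261023 alone, but that transcript also ends 4 bases further on, so exons and end cannot be told apart there. The 14 that fitted a pair of transcripts with the exons rest on the exons, and 0 fitted ENST00000374907 alone. Whole values of the estimates held 36, 19 and 78 counts of ENST00000261023 and 27, 13 and 57 of ENST00000374907. The share of the form without the exons was thus not settled. ITGA3 counts stood at 99.7%, 99.7% and 100% in ENST00000320031, the A-tail form, but that transcript ends 751 bases beyond the B-tail form (ENST00000007722), so this share cannot be told apart from a choice of end. ITGB8 counts stood at 91.8%, 96.4% and 93.7% in ENST00000222573. That transcript ends at chr7:20415754 and the other, ENST00000537992, at chr7:20410330. Their starts differ too, so this share cannot be told apart from a choice of start or end.

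The other genes of the pathway were read from lists. Beside the counts that follow, the share of all genes compared that was called higher and lower in the first line was 22.1% and 13.2% for ERBB2-high over RARRES2-high, 27.3% and 9.21% for ERBB2-high over FOLR1-high, and 22.9% and 13.2% for RARRES2-high over FOLR1-high, with median log2 ratios of 0.22, 0.46 and 0.20. Of 16 other integrin subunits, among which ITGB3 had no entry of its own, only ITGA1 and ITGA4 reached 5 CPM on average. ITGA1, of a collagen and laminin receptor, stood at 39.2, 9.47 and 1.55 CPM in the ERBB2-high, RARRES2-high and FOLR1-high lines, so the ERBB2-high line, lowest in ITGA2, was 25.3-fold (11.9 to 64.1) above the FOLR1-high line in ITGA1. ITGA4, of a receptor for fibronectin and VCAM1, stood at 1.16, 18.7 and 5.32 CPM.

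Of 22 focal adhesion adaptors compared, 4 were called higher and 4 lower in the ERBB2-high than in the RARRES2-high line, 10 higher and 2 lower in the ERBB2-high than in the FOLR1-high line, and 10 higher and 1 lower in the RARRES2-high than in the FOLR1-high line. The first of these counts, 4 higher of 22, lay near the background. Their median log2 ratios were -0.33, 0.89 and 0.71. The largest differences were in TGFB1I1 (Hic-5, a paxillin relative), at 74.1, 97.7 and 0.886 CPM, and in FERMT1 (kindlin-1, an integrin activator of epithelia), at 8.71, 37.3 and 0.221 CPM, the last from 1 count. TLN2, a talin that links beta tails to actin, went the other way, at 9.30, 18.4 and 79.1 CPM.

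Of 7 hemidesmosome and tetraspanin partners compared, 0 were higher and 2 lower in the first comparison, 3 higher and 1 lower in the second and 4 higher and 0 lower in the third, with medians of 0.41, 1.00 and 1.03. DST, a linker protein of hemidesmosomes, stood at 288, 181 and 7.53 CPM, PLEC at 114, 194 and 44.5 CPM, and CD9, a tetraspanin that binds integrins, at 45.6, 329 and 161 CPM. PLEC had the order of ITGB4, and CD9 that of ITGA2 and ITGB8. Of 20 ligands compared, 7 were higher and 6 lower, 11 higher and 6 lower, and 10 higher and 8 lower in the same comparisons, with medians of 0.16, 1.08 and 1.55. THBS1, a matrix protein that activates TGF-beta, stood at 66.2, 131 and 0.886 CPM, LAMB3, a chain of laminin-332, at 135, 81.7 and 3.32 CPM, and TGFB1, the cytokine held latent until ITGAV integrins release it, at 26.7, 26.1 and 0.664 CPM. These had the largest ratios and were lowest in the FOLR1-high line, but other ligands were highest there. The laminin chains LAMA5, LAMB1 and LAMC1 reached 161, 139 and 363 CPM in the FOLR1-high line, against 32.0, 33.7 and 157 CPM in the ERBB2-high line and 39.1, 74.0 and 97.4 CPM in the RARRES2-high line. SPP1, osteopontin, stood at 544, 98.9 and 2318 CPM, and the collagen IV chain COL4A2 at 105, 105 and 293 CPM.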

How the data were processed

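The authors deposited a sparse matrix of estimated counts per transcript and barcode for the PromethION library, and a list giving the position and gene of each transcript. The series' design text names Isosceles; the submitters' processing notes name Cell Ranger 6.0.1 and GRCh38 without saying for which step. The aligner, the annotation release and the treatment of molecular identifiers were not given in the sources used here. Of the matrix entries, 39.8% were whole within 1e-06, and sums per gene entry were whole.

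Transcript estimates were summed per gene entry, grouped by marker genes and pooled; CPM was computed here from all counts of a line. Levels have exact Poisson intervals, ratios exact conditional intervals and shares Clopper-Pearson intervals, all of 95%. A line with under 3 counts was set at 3 counts for calls and medians. Exons were taken from GENCODE release 29, to which 99233 of 99493 transcripts matched. Barcodes of mixed markers were left out, and whether each was a doublet is not known. Scrublet called 37 of these 208 barcodes as doublets, and leaving out its calls served as an alternative. Calculations used Python 3.11.15, numpy 2.4.6, scipy 1.17.1, pandas 2.3.3 and scanpy 1.11.5, and were tested on simulated data.

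The members, gene lists and tests were chosen with earlier results of these data known. Named were all members and at most 3 genes of each list with the largest ratio between lines among those reaching 20 CPM. Transcripts with at least 10% of a member's counts were named too, except those of ITGB6 and the only transcripts of ITGA2, ITGA5 and ITGB5. ITGA4, the further ligands, the remaining genes named beside the states and the remaining exon forms were chosen after their values were seen.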

Additional observations from a re-analysis of the deposited data

How the results depend on the processing

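No paired analysis was possible because each platform had 1 library and no result comes from a test. Counts of members at least 2-fold apart between lines stayed within 1.5 times the main count under every alternative but 1: at 3-fold, 2 in place of 4 members differed between the ERBB2-high and RARRES2-high lines and 5 in place of 8 between the RARRES2-high and FOLR1-high lines. ITGB8 between the ERBB2-high and FOLR1-high lines fell under 2-fold, from -1.01 to between -0.99 and -0.95 on the log2 scale, with a 90% marker share, with 2000 counts per barcode and with at least 5 marker counts, which left 5 of 9 members called. No called difference changed direction. Calls of transcript shares moved more. With only whole estimates, 2 members differed between the ERBB2-high and RARRES2-high lines (ITGA6 by 12.7 points, ITGB4 by 13.8) and 0 of the 4 compared between the ERBB2-high and FOLR1-high lines, where ITGB4 had under 50 whole counts in the FOLR1-high line and was not compared. A threshold of 5 points gave 2, 2 and 3 members in the 3 comparisons, and 20 points gave 0 and 0 in the comparisons that had 1. Barcodes with a single count of the gene gave 0 and 0 there, with ITGB4 at 7.94 and 6.64 points; the cause was not tested. The restricted D-tail and A-tail shares of decided barcodes were chosen after seeing the data. So were the alternatives of single-count barcodes, at least 5 marker counts, CXCL14 against DEFB1 alone and barcodes without other lines' marker genes. Depth limits ITGB6, found in 51 counts over all barcodes, and the decided ITGB4 barcodes.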
